A study of Mus musculus with 207 samples.

Results

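The comparison described here is that of liver RNA between mice fed a WPI diet and mice fed a CAS diet at the highest of the study's 3 fat levels, FAT-55. Its members are all liver libraries carrying the diet labels WPI-30_FAT-55 (12 libraries) or CAS-30_FAT-55 (11 libraries), 23 of the 207 libraries of the series and 23 of its 70 liver libraries. From knowledge of the study, CAS stands for casein and WPI for whey protein isolate, the main protein fractions of milk. The labels give only the abbreviations, and they give the protein level of 30 and the fat levels without a unit. The study asked how the source and amount of dietary protein alter the response to dietary fat, and it sampled jejunum, liver and hypothalamus of C57BL/6 mice on diets that crossed the protein source with fat levels 20, 40 and 55. Both groups carried the same strain, the same protein level and the same fat level, so the diet labels separate them by the protein source alone. The library numbers of the groups run in separate blocks. A difference between such blocks cannot be told apart from one between the proteins. Age, sex, time on the diet, batch and collection time of the livers are not given in the sources used here. In all 70 livers the Y-linked genes Kdm5d, Uty, Ddx3y and Eif2s3y had at least 259 reads and Xist at most 9, the pattern of male mice. The FAT-20 groups (11 CAS and 12 WPI livers) and the FAT-40 groups (12 CAS and 12 WPI livers) served for comparison.

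As background, the liver turns surplus carbohydrate and fat into triglyceride, which it exports in lipoproteins or stores in droplets coated by perilipins and Cide proteins. When fat accumulates over long periods, droplet genes rise, monocyte-derived macrophages enter, and stellate cells lay down collagen. In male mice the pulsed release of growth hormone, acting through STAT5, maintains a set of male-biased liver genes such as major urinary proteins (Mup), Hsd3b5 and several cytochrome P450 enzymes.

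The 23 libraries held between 21042991 and 36486880 reads assigned to genes. One library stood apart: WPI FAT-55 replicate 2 had a TMM scaling factor of 0.813 (0.936 to 1.048 in the other WPI libraries), 2.90% of its reads outside annotated features (4.79 to 6.21% in the others) and a correlation of 0.982 with its group's median profile (0.993 or more in the others). It is kept in the values below. Without it 787 genes were higher on WPI in place of 1064, and 1063 lower in place of 1119. The animal identifiers fall into 4 stems in each group, shared by 2 or 3 mice. No stem held mice of both groups, so the diets were never compared within a stem. The labels do not say what a stem marks, and how far mice of a stem resemble each other bears on every p-value below: the estimated correlation within a stem was 0.16. Albumin (Alb) stood at 53070 to 66140 CPM (counts-per-million of the reads on genes, with TMM scaling) in the CAS livers and 59650 to 115500 CPM in the WPI livers. The pancreatic genes Prss2, Cpa1 and Pnlip had 0 reads in all 23 libraries, and the fat cell genes Adipoq, Lep and Plin1 had at most 8. The other pancreatic marker, Cela1, had 207 to 477 reads in the CAS livers and 368 to 873 in the WPI livers. It was the only tested gene of the pancreas list and was called higher on WPI (log2 fold change 0.98). Cela1 is left out of the counts of named genes below.

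Of 15051 genes tested, 2183 differed between WPI and CAS livers at an adjusted p under 0.05 in edgeR's quasi-likelihood test, which is 14.5% of the genes. Of these, 1064 were higher on WPI (7.07%) and 1119 were lower (7.43%). The counts of list members below are to be read beside these shares. The median log2 fold change over all genes was 0.0003 after TMM scaling, which centres it near 0. Large differences lay more often on the lower side: 141 called genes were at least 2-fold lower on WPI and 55 at least 2-fold higher. With reads summed over the mice of each stem (4 sums against 4), 76 genes were higher and 135 lower. With the stem as a random effect in limma, 452 were higher and 552 lower. The counts of list members given below shrank with sums over stems as well. Higher male-biased genes went from 16 to 3, bile acid genes from 7 to 2 and ribosomal genes from 43 to 4. The 13 higher oxidation genes and the 21 higher respiratory chain genes went to 0. Lower fatty acid synthesis genes went from 9 to 1, macrophage genes from 9 to 1 and Nrf2 target genes from 9 to 5. Of the 93 called genes named below, 66 did not pass there. For 24 genes (0.159%) no WPI library overlapped any CAS library, 10 of them higher (0.0664%) and 14 lower (0.0930%).

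Genes that make and store fat were lower on WPI, led by those of the lipid droplet. Cidec encodes a protein that fuses small droplets into large ones (GRCm38 chromosome 6, 113424634 to 113435760, minus strand). Its level ran from 23.6 to 124 CPM in the CAS livers with a median of 59.5, and from 2.79 to 39.2 CPM in the WPI livers with a median of 7.80. All 12 WPI livers lay under the CAS median, although the ranges overlapped. The log2 fold change was -2.45 ± 0.43 (SE), a 5.46-fold lower level, with adjusted p = 7.69e-05. Its relative Cidea was lower by a similar amount but varied more, from 1.17 to 27.9 CPM on CAS and from 0.0347 to 15.6 CPM on WPI (log2 fold change -2.37 ± 0.68, adjusted p = 0.0119). Without WPI FAT-55 replicate 10, its highest WPI liver, the log2 fold change of Cidea was -3.91. The perilipin Plin4 separated the groups completely, with 67.6 to 198 CPM on CAS and 13.4 to 65.7 CPM on WPI (log2 fold change -1.43 ± 0.33, adjusted p = 0.00179). Plin3 fell by 0.51 and Plin2, the main perilipin of the fatty liver, by 0.53 on the log2 scale (adjusted p = 0.00141 and 0.0357). These 5 genes were the called members among 18 tested droplet genes, beside 7.43% lower over all genes. None was higher, and the list's median log2 fold change was -0.11. Plin2 lost its call in 8 of the 23 fits that left out 1 library (adjusted p up to 0.0825), and the other 4 genes kept theirs. Cidea lost its call without stem H5D, H3F, H4D or H9A (adjusted p up to 0.0777 in edgeR). With sums over stems Cidec and Plin3 passed in edgeR (adjusted p = 0.0407 and 0.041). Cidea, Plin4 and Plin2 did not pass there (adjusted p = 0.224, 0.0808 and 0.274).

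Genes of fatty acid synthesis were lower too, among them those of desaturation and elongation, while the synthase did not pass the test. Scd1, the desaturase that makes monounsaturated fatty acids (chromosome 19, 44394455 to 44407879, minus strand), ran from 7388 to 15290 CPM on CAS (median 11760) and from 1125 to 10450 CPM on WPI (median 3546). All WPI livers lay below the CAS median, and the fold was 2.92 (log2 fold change -1.55 ± 0.31, adjusted p = 0.000399). The elongase Elovl5 had a log2 fold change of -0.98 ± 0.19 (adjusted p = 0.000302), malic enzyme Me1, a source of NADPH, one of -0.85 ± 0.22 (adjusted p = 0.00633), and the phosphogluconate dehydrogenase Pgd one of -0.47 ± 0.10 (adjusted p = 0.000848). The desaturase Fads2 had one of -0.51 ± 0.15 (adjusted p = 0.0112). In all, 9 of 21 tested members were lower, beside 7.43% of all genes, and 1, Tkfc, was higher (log2 fold change 0.46 ± 0.14). The list's median was -0.30. Fatty acid synthase itself, Fasn, did not pass (log2 fold change -0.30 ± 0.24, adjusted p = 0.432), nor did the lipogenic regulator Srebf1 (-0.46 ± 0.22, adjusted p = 0.141). Among 15 genes of triglyceride synthesis, Mogat1, an acyltransferase that makes diglyceride, and Pparg, the nuclear receptor of fat storage, were the 2 called, both lower. That share is near the 14.5% called over all genes, and the list's median was -0.07, so the list as a whole did not stand out. Mogat1 ran from 4.48 to 10.3 CPM on CAS and from 0.659 to 5.16 CPM on WPI (log2 fold change -1.51 ± 0.34, adjusted p = 0.00184). Pparg had a log2 fold change of -0.79 ± 0.22 (adjusted p = 0.0091).

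**Figure D1:**
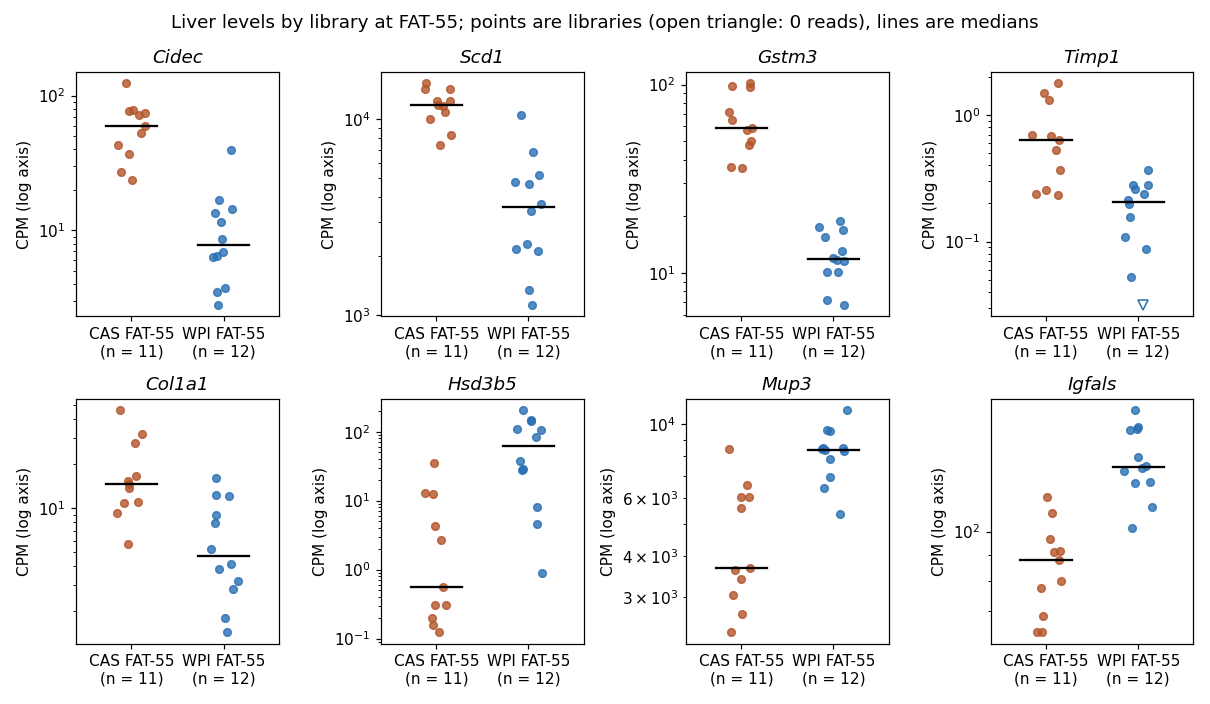
Level of 8 genes in each FAT-55 liver library, in CPM on log axes; points are libraries (open triangle: 0 reads) and lines are group medians. Cidec, Scd1, Gstm3, Timp1 and Col1a1 sit lower in the 12 WPI livers, and Hsd3b5, Mup3 and Igfals sit higher; of the 8, Gstm3 has no overlap between the groups.

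Matrix and fibrosis genes were lower on WPI as a group: 23 of 35 tested members were called lower and none higher, beside 7.43% of all genes, with a list median of -0.64. Timp1, an inhibitor of matrix-degrading proteases (chromosome X, 20870166 to 20874735, plus strand), was the member with the lowest adjusted p. Its level was low, from 0.232 to 1.80 CPM on CAS (median 0.636) and from 0 to 0.367 CPM on WPI (median 0.206). The log2 fold change was -1.95 ± 0.38 (adjusted p = 0.000299), and all 12 WPI livers lay under the CAS median. The fibrillar collagen Col1a1 ran from 5.67 to 46.2 CPM on CAS and from 1.42 to 16.1 CPM on WPI (log2 fold change -1.46 ± 0.35, adjusted p = 0.00323). Its partner Col1a2 had a log2 fold change of -1.10 ± 0.22 (adjusted p = 0.00051), and Col3a1 one of -1.12 ± 0.23 (adjusted p = 0.000653). The collagen cross-linking enzyme Loxl2 had a log2 fold change of -0.74 ± 0.15 (adjusted p = 0.000589). The list covers enzymes on both sides of matrix turnover: the matrix-degrading proteases Mmp12 and Mmp13 were lower too, with log2 fold changes of -1.88 ± 0.40 and -1.88 ± 0.41. The contractile gene Acta2, a sign of activated stellate cells, did not pass (0.42 ± 0.44, adjusted p = 0.563). Without WPI FAT-55 replicate 2, 21 members were lower, and with sums over stems 2 were.

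The fibrillar collagens among these genes are made largely by stellate cells, a small share of the liver. In bulk tissue fewer cells of a type cannot be told apart from less RNA per cell. Of 14 tested stellate cell markers, 3 were lower (Col3a1, Col1a1 and Pdgfrb), none was higher, and the list median was -0.12. Their summed level was 538 to 857 CPM on CAS and 475 to 786 CPM on WPI. The defining markers did not pass: Reln had a log2 fold change of -0.11 ± 0.10 (adjusted p = 0.469) and Lrat, the vitamin A storage enzyme, one of -0.14 ± 0.13 (adjusted p = 0.474). Their part in the result was not tested.

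Macrophage genes were lower in part. Of 24 tested macrophage genes, 9 were lower and none higher (list median -0.40). The lower ones included Cx3cr1 and Ccr2, chemokine receptors of monocytes, with log2 fold changes of -1.38 ± 0.28 and -1.21 ± 0.24 (adjusted p = 0.000414 and 0.000423). Itgax, an integrin of dendritic and lipid-laden macrophages, had one of -1.34 ± 0.27 (adjusted p = 0.000492), and the glycoprotein Gpnmb one of -2.00 ± 0.47 (adjusted p = 0.00256). Gpnmb ran from 1.16 to 11.9 CPM on CAS and from 0.0723 to 4.27 CPM on WPI. Among the genes of resident Kupffer cells, Clec4f ran from 69.3 to 128 CPM on CAS and from 89.1 to 138 CPM on WPI (log2 fold change 0.12 ± 0.12, adjusted p = 0.525). Vsig4 had a log2 fold change of 0.11 ± 0.13 and Timd4 one of 0.18 ± 0.20, neither past the threshold. The macrophage markers Cd5l, Csf1r and Adgre1 went the other way, with log2 fold changes of -0.17 ± 0.18, -0.12 ± 0.15 and -0.23 ± 0.20. They did not pass either (adjusted p = 0.573, 0.64 and 0.491). Whether the changes of these markers differ from those of the called macrophage genes was not tested. Ccl2, the chemokine that draws monocytes, was lower (log2 fold change -1.49 ± 0.34, adjusted p = 0.00159). The summed macrophage list was 606 to 1302 CPM on CAS and 649 to 921 CPM on WPI. The marker Trem2 did not pass (-0.76 ± 0.29, adjusted p = 0.0612).

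Interferon-response and cell-cycle genes were also lower. Of 44 interferon genes 11 were lower and none higher (median -0.23), led by Oasl2 (log2 fold change -0.57 ± 0.14, adjusted p = 0.00308), a member of the oligoadenylate synthetase family. The interferon-induced GTPase Gbp2 had one of -0.89 ± 0.26 (adjusted p = 0.0137). The count of 11 rested on single livers: it was 4 without CAS FAT-55 replicate 6, 4 without CAS FAT-55 replicate 11 and 7 without WPI FAT-55 replicate 4. Gbp2 lost its call without either of the CAS livers (adjusted p = 0.0652 and 0.0621). With the stem as a random effect 2 interferon genes passed, and with sums over stems none did in edgeR at the adjusted threshold, although 14 were lower at an unadjusted p under 0.05. Of 27 cell-cycle genes 13 were lower and none higher (median -0.50). Mki67, the proliferation marker, ran from 3.83 to 12.4 CPM on CAS and from 1.67 to 5.41 CPM on WPI (log2 fold change -1.04 ± 0.25, adjusted p = 0.00317). Mcm2, of the replication helicase, and Cdc20, an activator of mitotic exit, had log2 fold changes of -0.67 ± 0.16 and -1.20 ± 0.31 (adjusted p = 0.00359 and 0.00531). Without CAS FAT-55 replicate 11 the count was 8, with the stem as a random effect 7, and with sums over stems 0 in edgeR, where 15 were lower at an unadjusted p under 0.05. Of the lymphocyte genes, Cd8a, Ccl5 and Gzma were the 3 of 14 called, all lower, at levels near 1 CPM or less in the median liver. Ccl5 lost its call without CAS FAT-55 replicate 6 or 11 (adjusted p = 0.079 and 0.0598), Gzma without replicate 8 or 11 (adjusted p = 0.0599 and 0.114), and in the fits with library quality weights or with the stem as a random effect none of the 3 passed (adjusted p = 0.264 for Cd8a, 0.397 for Ccl5 and 0.404 for Gzma in the latter). Without CAS FAT-55 replicate 11 the count of 3 was 1.

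Male-biased genes and the growth hormone axis were higher on WPI. Of 31 tested members 16 were higher and 1 was lower, beside 7.07% higher over all genes, and the list median was 0.66. Hsd3b5, a keto-steroid reductase of male liver (chromosome 3, 98618634 to 98630252, minus strand), had the largest fold of the named genes higher on WPI. It ran from 0.123 to 35.5 CPM on CAS (median 0.551) and from 0.902 to 204 CPM on WPI (median 61.2). All 12 WPI livers lay above the CAS median, while the ranges overlapped. The log2 fold change was 3.56 ± 0.74, an 11.8-fold higher level (adjusted p = 0.000718). With sums over stems the adjusted p was 0.0639, and with the stem as a random effect it was 0.0587. Mup3, a urinary pheromone carrier, ran from 2347 to 8412 CPM on CAS and from 5374 to 11040 CPM on WPI (log2 fold change 0.82 ± 0.13, adjusted p = 2.22e-05). Mup21 had a log2 fold change of 1.45 ± 0.24 (adjusted p = 2.92e-05) and Mup7 one of 2.09 ± 0.47 (adjusted p = 0.00164). The Mup genes are near-identical copies, as are Cyp4a12a and Cyp4a12b and the Serpina1 genes, so their reads may be shared out among copies and single members are uncertain. Among these, Serpina1e had a log2 fold change of 2.25 ± 0.55 and Cyp4a12b one of 2.13 ± 0.46, while Cyp4a12a did not pass (0.65, adjusted p = 0.15). Mup11 (1.71 ± 0.55, adjusted p = 0.0272) and Mup14 (1.58 ± 0.56, adjusted p = 0.0446) lost their calls in 3 and in 11 of the 23 fits that left out 1 library (adjusted p up to 0.056 and 0.0861). Igfals, which stabilises circulating IGF1 (chromosome 17, 24865997 to 24882010, plus strand), was higher with 63.4 to 117 CPM on CAS and 102 to 173 CPM on WPI (log2 fold change 0.68 ± 0.09, adjusted p = 3.21e-07). Igf1 itself had a log2 fold change of 0.43 ± 0.10 (adjusted p = 0.00225) and the growth hormone receptor Ghr one of 0.22 ± 0.07 (adjusted p = 0.038). Ghr lost its call in 11 of the 23 fits that left out 1 library (adjusted p up to 0.0824). Stat5a was the member that was lower (-0.40 ± 0.11, adjusted p = 0.00657), Stat5b, the main transducer in liver, did not pass (-0.14 ± 0.07, adjusted p = 0.158), nor did the feedback inhibitor Socs2 (0.77 ± 0.37, adjusted p = 0.157). Of 18 female-biased genes none was higher and 3 were lower: Cyp2b13 (-1.82 ± 0.55), Cyp17a1 (-0.96 ± 0.31) and the transporter Slc22a27 (-1.16 ± 0.38). The list median was -0.10. Cyp17a1 lost its call without CAS FAT-55 replicate 2, 8 or 11 or WPI FAT-55 replicate 1 (adjusted p up to 0.0621), Slc22a27 in 6 of the 23 fits (adjusted p up to 0.0571), and Cyp2b13 in DESeq2 (adjusted p = 0.129). The count of 3 was 1 without CAS FAT-55 replicate 11 or WPI FAT-55 replicate 1.

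**Figure D2:**
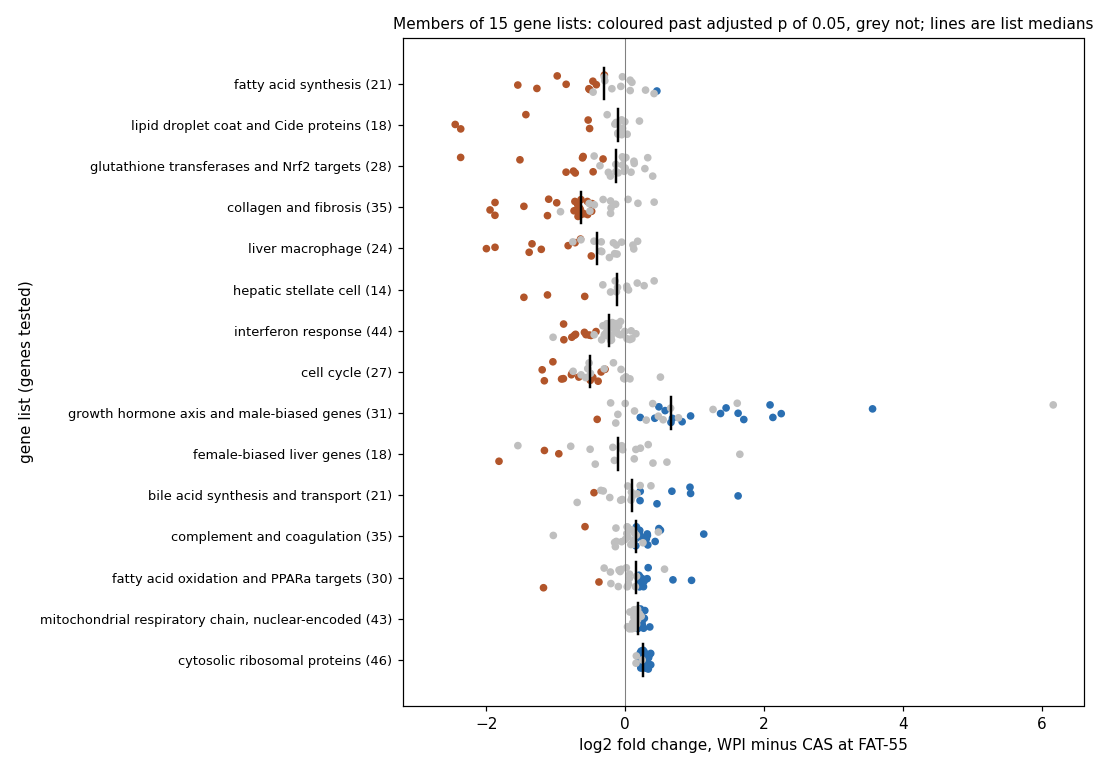
Log2 fold change of WPI minus CAS at FAT-55 for every tested member of 15 gene lists; coloured points passed an adjusted p of 0.05, grey points did not, and black lines are list medians. Medians of the fibrosis and cell-cycle lists lie at -0.64 and -0.50 and that of the male-biased list at 0.66.

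The promoters of 3 genes are shown because growth hormone acts through STAT5 and glutathione transferase genes are targets of Nrf2. The sites of both factors are short motifs. The sequences are from RefSeq (build GRCm38.p6), 250 bases before to 50 bases after a start, in 5' to 3' order of the gene, and capitals mark the letters TTCNNNGAA, a STAT palindrome. Mup7 (chr4:60070426-60070725, minus strand) and the second of 3 starts listed for Igfals (chr17:24877981-24878280, plus strand) were searched for it on both strands.
Mup7: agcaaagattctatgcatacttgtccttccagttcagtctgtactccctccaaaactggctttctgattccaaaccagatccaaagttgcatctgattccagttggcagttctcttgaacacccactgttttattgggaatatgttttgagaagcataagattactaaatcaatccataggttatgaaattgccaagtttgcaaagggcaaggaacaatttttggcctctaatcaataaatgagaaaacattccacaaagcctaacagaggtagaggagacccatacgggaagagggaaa
Igfals: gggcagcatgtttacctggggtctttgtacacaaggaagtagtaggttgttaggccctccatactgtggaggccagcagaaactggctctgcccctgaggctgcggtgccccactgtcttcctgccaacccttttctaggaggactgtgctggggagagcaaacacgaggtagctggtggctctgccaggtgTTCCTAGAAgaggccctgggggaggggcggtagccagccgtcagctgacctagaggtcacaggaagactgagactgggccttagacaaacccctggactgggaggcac
The printed Igfals window held 1 match and the Mup7 window none. Of the Igfals windows not printed, that of the first start held 1 match and that of the third none. All 3 Igfals windows lie inside the gene's span given above, downstream of its annotated start. Of the 16 male-biased genes that were higher, 13 had a RefSeq promoter and 2 of these held the motif, Igfals and C8a (C8a lost its call in 7 of the 23 fits that left out 1 library). Over all 32851 promoters, which belong to 27025 symbols, 8.30% held it. Counts for gene groups here and below are by gene, and a match at any listed start counts. The shares over all promoters are by promoter, so the units differ, and a gene with several starts has more windows. The motif was in none of the 12 matched lower fat synthesis and droplet genes and in none of the 15 matched lower fibrosis genes. Another 6 motifs were searched on both strands in the same windows. The E-box CACGTG (7.15% of all promoters) was in 2 of the 12 fat genes, Elovl5 and Plin2, and in none of the male-biased or fibrosis genes. The TATA letters TATAAA (13.6%) were in 3 of the 13 male-biased genes, Cyp2d9, Slco1a1 and Ghr, and in 2 of the 12 fat genes, Acacb and Pparg. They were also in 5 of the 15 fibrosis genes, Col3a1, Mmp12, Mmp13, Vim and Spp1. The sterol element TCACNCCAC (1.24%) was in 1 fibrosis gene, Spp1, and in none of the fat or male-biased genes. The C/EBP letters TTGCGCAA (0.183%), the nuclear receptor element called direct repeat 1 (0.0396%) and the shorter HNF4 letters CAAAGGTCA (0.478%), which that repeat can contain, were in none of the promoters of these 3 gene groups. A match describes letters only.

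Other biotransformation genes changed in both directions. Of 35 tested genes of the cytochrome P450 families 2 and 3 and their receptors, 8 were higher and 4 lower (median 0.18). Cyp2c54 ran from 16.2 to 132 CPM on CAS and from 119 to 456 CPM on WPI, with all WPI livers above the CAS median (log2 fold change 1.90 ± 0.27, adjusted p = 1.75e-06). Cyp2d9, also male-biased, had a log2 fold change of 0.66 ± 0.12 (adjusted p = 0.000227). Cyp3a59 ran from 39.2 to 72.7 CPM on CAS and from 14.3 to 40.9 CPM on WPI (log2 fold change -1.03 ± 0.19, adjusted p = 0.000115). Cyp3a11, the main inducible drug-metabolising P450, was lower as well (-0.85 ± 0.23, adjusted p = 0.00896), and Cyp2c55 (-1.05 ± 0.24) and Cyp2b13 were the other two. Cyp2e1 and Cyp1a2, enzymes of hepatocytes around the central vein, had log2 fold changes of 0.46 ± 0.11 and 0.63 ± 0.15 (adjusted p = 0.00265 and 0.00254). Glul, glutamine synthetase, which defines the innermost of these cells, was lower (-0.24 ± 0.07, adjusted p = 0.0105). The list of 13 tested pericentral genes held 4 higher and 1 lower with a median of 0.05, and the 4 became 2 in 9 of the 23 fits that left out 1 library.

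Glutathione transferases were lower: 9 of 28 tested genes of the Nrf2 target list were lower and none higher (median -0.13). Gstm3 (chromosome 3, 107963696 to 107969283, minus strand) had the lowest adjusted p among the members of that list. It ran from 36.1 to 102 CPM on CAS (median 59.1) and from 6.76 to 18.9 CPM on WPI (median 11.8), so the groups did not overlap. The log2 fold change was -2.37 ± 0.23, a 5.17-fold lower level (adjusted p = 3.11e-11), and with sums over stems the adjusted p was 0.00359. The Gstm genes lie side by side and resemble each other, so reads may be shared out among them. Gstm1 had a log2 fold change of -0.75 ± 0.12 (adjusted p = 1.39e-05) and Gstm4 one of -0.72 ± 0.13 (adjusted p = 8.05e-05). The antioxidant response element core of Nrf2, TGACNNNGC on either strand, was not found in the RefSeq promoter of Gstm3 (chr3:107969125-107969424, minus strand). By gene, it was in 2 of the 8 lower members with a promoter, Srxn1 and Ugdh. It was also in 4 of the 12 lower fat genes with a promoter, Pgd, Me1, G6pdx and Pparg. By promoter, a different unit, it was in 12.4% of all promoters.
Gstm3: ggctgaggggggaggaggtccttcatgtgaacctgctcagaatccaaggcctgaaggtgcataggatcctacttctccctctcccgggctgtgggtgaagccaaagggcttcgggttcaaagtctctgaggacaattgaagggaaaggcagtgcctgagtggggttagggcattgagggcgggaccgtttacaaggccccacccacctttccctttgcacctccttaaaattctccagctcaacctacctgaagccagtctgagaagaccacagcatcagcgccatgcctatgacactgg

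Bile acid handling and transport genes were higher in part. Of 21 tested members 7 were higher and 1, the exporter Abcc4, was lower (-0.45 ± 0.12; median of the list 0.10). Slc10a1, the sodium-dependent bile acid importer, ran from 398 to 657 CPM on CAS and from 636 to 1074 CPM on WPI (log2 fold change 0.67 ± 0.09, adjusted p = 3.21e-07). The bile acid receptor Nr1h4 separated the groups, with 107 to 163 CPM on CAS and 166 to 232 CPM on WPI (log2 fold change 0.46 ± 0.08, adjusted p = 0.000114). The organic anion transporter Slco1a1 was 3.09-fold higher (1.63 ± 0.36, adjusted p = 0.00141). Cyp7a1, the rate-limiting enzyme of bile acid synthesis, had a log2 fold change of 0.93 ± 0.31 (adjusted p = 0.0346) and lost its call in 7 of the 23 fits that left out 1 library (adjusted p up to 0.0671). Cyp7b1, of the alternative route, had one of 0.94 ± 0.23 (adjusted p = 0.00381).

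Oxidation genes were higher by small steps. Of 30 tested members of the fatty acid oxidation and PPARa list 13 were higher (10 without WPI FAT-55 replicate 2) and 2, Pdk4 and Ucp2, lower (median 0.16). With sums over stems 0 were called in edgeR, although 14 were higher and 1 lower at an unadjusted p under 0.05. Creb3l3, a fasting-related transcription factor, had a log2 fold change of 0.26 ± 0.06 (adjusted p = 0.00128). Pdk4, which restrains glucose oxidation, was lower at -1.18 ± 0.32 (adjusted p = 0.00841), and Ucp2, an uncoupling protein, lost its call in 12 of the 23 fits that left out 1 library (adjusted p up to 0.107). Of 43 nuclear-encoded respiratory chain genes 21 were higher and none lower (median 0.18), and of 46 cytosolic ribosomal protein genes 43 were higher and none lower (median 0.26). Without WPI FAT-55 replicate 2 these counts were 9 and 27, and in a fit of the FAT-55 libraries alone 6 and 15. With the stem as a random effect they were 8 and 24. With sums over stems they were 0 and 4 in edgeR, where 25 and 43 were higher at an unadjusted p under 0.05. The mitochondrial share of reads also differed, at 6.26 to 7.91% on CAS and 7.10 to 8.94% on WPI, and reads on more than one place made up 6.93 to 8.01% and 7.71 to 8.74%. Their part in the ribosomal result was not tested.

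Secreted proteins of the liver were higher more often than lower. Of 35 complement and coagulation genes 15 were higher and 1 lower (median 0.15), with 11 higher without WPI FAT-55 replicate 2 and 7 with the stem as a random effect. C8b, of the terminal complement complex, had a log2 fold change of 1.13 ± 0.20 (adjusted p = 7.69e-05), and the clotting factors F10 and F7 had 0.33 ± 0.06 and 0.43 ± 0.08 (adjusted p = 9.27e-05 and 0.000266). Apom, an apolipoprotein that carries sphingosine-1-phosphate, was higher (0.64 ± 0.12, adjusted p = 0.00014), while Apoa4 was lower, from 87.3 to 499 CPM on CAS and 26.1 to 226 CPM on WPI (-1.35 ± 0.32, adjusted p = 0.00292). Of 30 acute phase genes 2 were higher, Serpina3k and C3, and 3 lower, a share near that over all genes (7.07% higher and 7.43% lower). The lower ones included Il1rn (-0.91 ± 0.20, adjusted p = 0.00136) and Lcn2 (-1.59 ± 0.51, adjusted p = 0.0247). Lcn2 lost its call without CAS FAT-55 replicate 6 or 11 (adjusted p = 0.0574 and 0.0844), and without replicate 11 the log2 fold change of Il1rn was -0.60. Without replicate 6 the 3 lower acute phase genes became 1. The zinc transporter Slc39a4 ran from 7.04 to 31.5 CPM on CAS and from 6.51 to 13.8 CPM on WPI (-1.09 ± 0.20, adjusted p = 9.96e-05).

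Among other genes with the largest folds, the lower ones were headed by Ephb2, a receptor tyrosine kinase (chromosome 4, 136647539 to 136835988, minus strand). It ran from 0.293 to 4.77 CPM on CAS (median 2.53) and from 0.104 to 0.640 CPM on WPI (median 0.280), a 7.03-fold lower level (log2 fold change -2.81 ± 0.38, adjusted p = 3.36e-07). All WPI livers lay below the CAS median. Gprc5b, an orphan receptor, had a log2 fold change of -2.64 ± 0.40 (adjusted p = 5.53e-06), Ly6d one of -2.31 ± 0.38 (adjusted p = 2.7e-05) and Kbtbd11 one of -1.89 ± 0.26 (adjusted p = 4.87e-07). Kbtbd11 did not overlap between the groups. On the higher side, Susd4, a complement regulator, ran from 8.58 to 23.9 CPM on CAS and from 23.4 to 70.5 CPM on WPI (1.53 ± 0.19, adjusted p = 7.59e-08). Adgrf1, an adhesion receptor, had a log2 fold change of 1.65 ± 0.43 (adjusted p = 0.0062) at a median of 1.46 CPM or less in either group. The choline-degrading enzyme Dmgdh had the groups apart, with 344 to 465 and 564 to 696 CPM (0.54 ± 0.08, adjusted p = 1.26e-05). No member was called in the lists of glucose production (26 tested), endoplasmic reticulum chaperones (20) and the circadian clock (21), where the share called over all genes was 14.5%. At an unadjusted p under 0.05 edgeR gave 4, 3 and 2 of their members, and DESeq2 called 1, 0 and 0. Nor was any called in the lists of B and plasma cells (12 tested), neutrophils (4), red blood cells (5), muscle (2) and sex chromosome genes (4), with 2, 2, 0, 1 and 0 at an unadjusted p under 0.05 in edgeR and 0 called in each by DESeq2. Of 40 genes of the urea cycle and amino acid breakdown 3 were called, all higher by under 0.40 on the log2 scale: Prodh2, Fah and Hpd. That share is near the 7.07% higher over all genes. Without WPI FAT-55 replicate 2, Hpd had an adjusted p of 0.05.

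Within each group, levels of the 4 marker genes were correlated across livers on the log2(CPM + 1) scale, with 12 relations in all and two-sided permutation p-values. In the WPI livers Cidec and Scd1 rose together, with Pearson's r = 0.866 (permutation p = 0.00032, adjusted p = 0.00384) and Spearman's rho = 0.853 (permutation p = 0.00085, adjusted p = 0.0102) over 12 livers. Without the 2 livers farthest from the median of Cidec, r was 0.743. In the 11 CAS livers the same pair gave r = 0.393 (permutation p = 0.234, adjusted p = 0.351) and rho = 0.427 (permutation p = 0.192, adjusted p = 0.256). The difference between the groups' correlations was not tested. In the CAS livers Timp1 and Hsd3b5 ran against each other, with r = -0.753 (permutation p = 0.00952, adjusted p = 0.0571) and rho = -0.773 (permutation p = 0.0078, adjusted p = 0.0468). Without the 2 livers farthest from the median of Timp1, r was -0.771. Of the 12 relations, these were the 2 with an adjusted p under 0.05 by r or rho. Mice of one stem are not fully independent, which these p-values do not take into account.

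**Figure D3:**
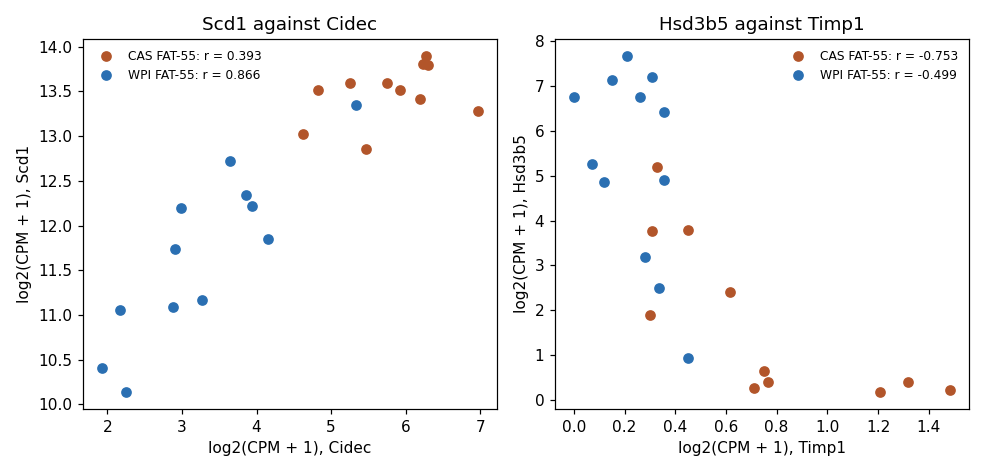
Level of Scd1 against Cidec (left) and of Hsd3b5 against Timp1 (right) in each FAT-55 liver, both as log2(CPM + 1); colours mark the diet and the legend gives Pearson's r within each group. Cidec and Scd1 rise together in the 12 WPI livers (r = 0.866), and Hsd3b5 is high where Timp1 is low in the 11 CAS livers (r = -0.753).

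By the number of genes called, the same contrast was smaller at FAT-20 and intermediate at FAT-40, though not in every list. At FAT-20, 77 genes were called (0.512%), and at FAT-40, 1236 (8.21%). Of the 1064 genes higher at FAT-55, 223 were also higher at FAT-40 (21.0% of the FAT-55 list and 38.5% of the 579 at FAT-40, which are 3.85% of all genes). Of the 1119 lower genes 212 were shared (18.9% of that list and 32.3% of the 657 at FAT-40, which are 4.37% of all genes). The test of the difference itself, the protein effect at FAT-55 minus that at FAT-20, called 1027 genes (6.82%), with 452 toward higher on WPI at FAT-55 and 575 toward lower (3.82%). Of the 1027, 714 were among the 2183 called at FAT-55. Both tests use the same FAT-55 libraries, so part of this overlap is built in. Against FAT-40 it called 49 genes (0.326%), 13 toward higher (0.0864%) and 36 toward lower (0.239%), so for most genes the effects at FAT-40 and FAT-55 were not shown to differ. These counts depended on the tool and on the stems: DESeq2 called 158 genes at FAT-20 and 190 for the difference against FAT-40, and with the stem as a random effect 110 passed for the difference against FAT-20 and none for that against FAT-40 (1348 at an unadjusted p under 0.05).

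The levels in the 6 diet groups are given here for 6 genes. In CAS livers Gstm3 stood at 8.61 ± 3.18 CPM (SD, n = 11) at FAT-20, 41.8 ± 21.6 (n = 12) at FAT-40 and 65.4 ± 24.0 (n = 11) at FAT-55. In WPI livers it stood at 6.29 ± 1.76, 10.8 ± 4.24 and 12.6 ± 3.93 CPM (n = 12 each). Its mean was higher at each step of fat on both proteins, from 8.61 to 65.4 CPM on CAS and from 6.29 to 12.6 CPM on WPI. The protein effect on Gstm3 differed by -1.92 ± 0.33 on the log2 scale (adjusted p = 0.000269). Hsd3b5 stood at 149 ± 60.5, 45.6 ± 64.8 and 6.34 ± 10.8 CPM in CAS livers and at 84.3 ± 40.1, 138 ± 110 and 75.0 ± 66.8 CPM in WPI livers, and its protein effect differed by 4.38 ± 0.98 between FAT-55 and FAT-20 (adjusted p = 0.00413). Mup3 stood at 9734 ± 860, 7050 ± 1388 and 4671 ± 1944 CPM in CAS livers and at 8532 ± 1260, 8318 ± 1142 and 8241 ± 1508 CPM in WPI livers. Igfals gave the same picture, with 139 ± 14.8, 102 ± 19.1 and 85.9 ± 17.6 CPM on CAS and 138 ± 11.7, 125 ± 18.3 and 138 ± 21.3 CPM on WPI. Cidec stood at 11.5 ± 9.84, 23.2 ± 23.9 and 60.8 ± 28.8 CPM on CAS and at 8.16 ± 5.22, 6.79 ± 6.74 and 11.2 ± 9.93 CPM on WPI (difference of effects -1.96 ± 0.60, adjusted p = 0.0355). Scd1 stood at 6547 ± 2148, 11330 ± 5483 and 11700 ± 2468 CPM on CAS and at 4207 ± 1701, 4476 ± 3014 and 4002 ± 2649 CPM on WPI. At FAT-20 it had a log2 fold change of -0.64 that did not pass (adjusted p = 0.337), and its difference of effects did not pass either (-0.91 ± 0.43, adjusted p = 0.185).

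**Figure D4:**
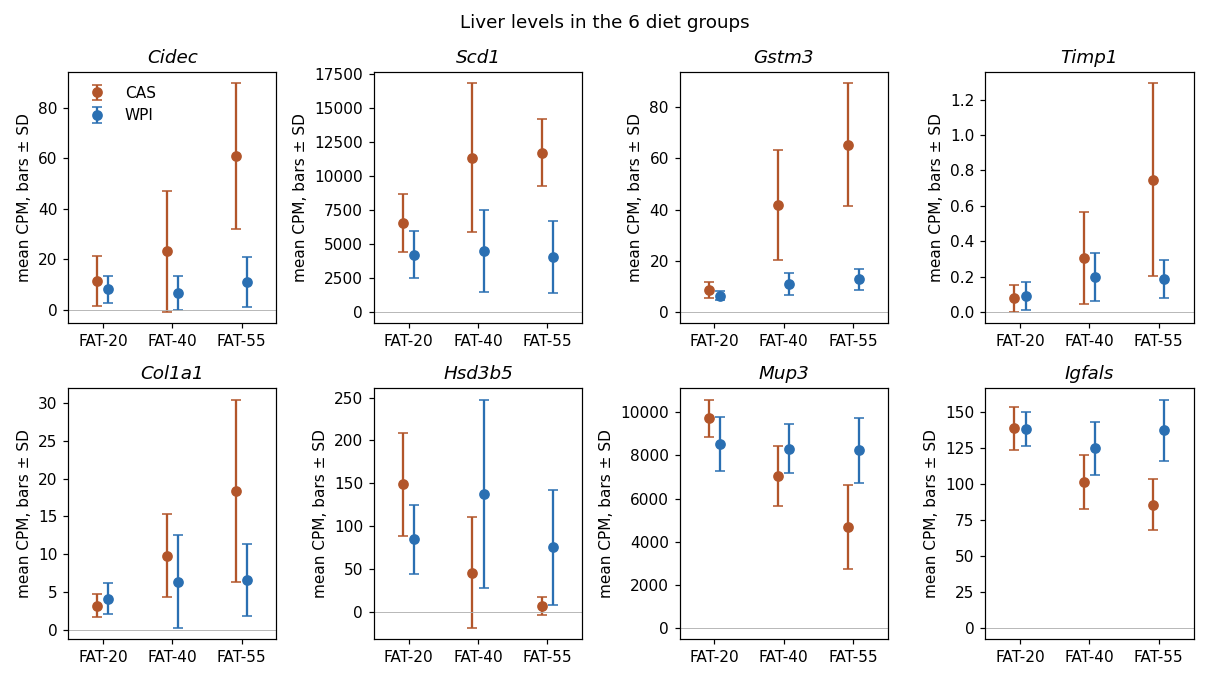
Mean level of 8 genes in the 6 diet groups of liver, in CPM with bars of ± 1 SD (n = 11 or 12 libraries a group). From FAT-20 to FAT-55 the CAS means of Gstm3 go from 8.61 to 65.4 CPM and those of Mup3 from 9734 to 4671 CPM, while the WPI means of Mup3 stay between 8241 and 8532 CPM.

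By list, the fibrosis genes were called lower in 23 of 35 at FAT-55, with none lower and 2 higher at FAT-40 and none either way at FAT-20. The difference of effects against FAT-20 was called for 17 of them, all toward lower on WPI at FAT-55, and that against FAT-40 for none. The male-biased list had 16 higher at FAT-55, 13 at FAT-40 and none at FAT-20, with 12 differences of effects called against FAT-20. Cell-cycle genes were lower in 13 of 27 at FAT-55 and in 14 at FAT-40, with medians of -0.50 and -0.73. Fatty acid synthesis genes were lower in 9 at FAT-55 and in 9 at FAT-40, with medians of -0.30 and -0.42. Genes of the Nrf2 target list were lower in 9 at FAT-55 and in 11 at FAT-40, with medians of -0.13 and -0.33. Ribosomal protein genes were higher in 43 at FAT-55 and 33 at FAT-40. Of the 30 acute phase genes 12 were higher at FAT-40 and 2 at FAT-55. The difference of effects against FAT-40 was called for 2 of the 30, toward lower on WPI at FAT-55. Over all genes, 3.85% were higher and 4.37% lower at FAT-40, beside 7.07% and 7.43% at FAT-55. The difference against FAT-20 was called toward higher for 3% of all genes and toward lower for 3.82%. Against FAT-40 these shares were 0.0864% and 0.239%.

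**Figure D5:**
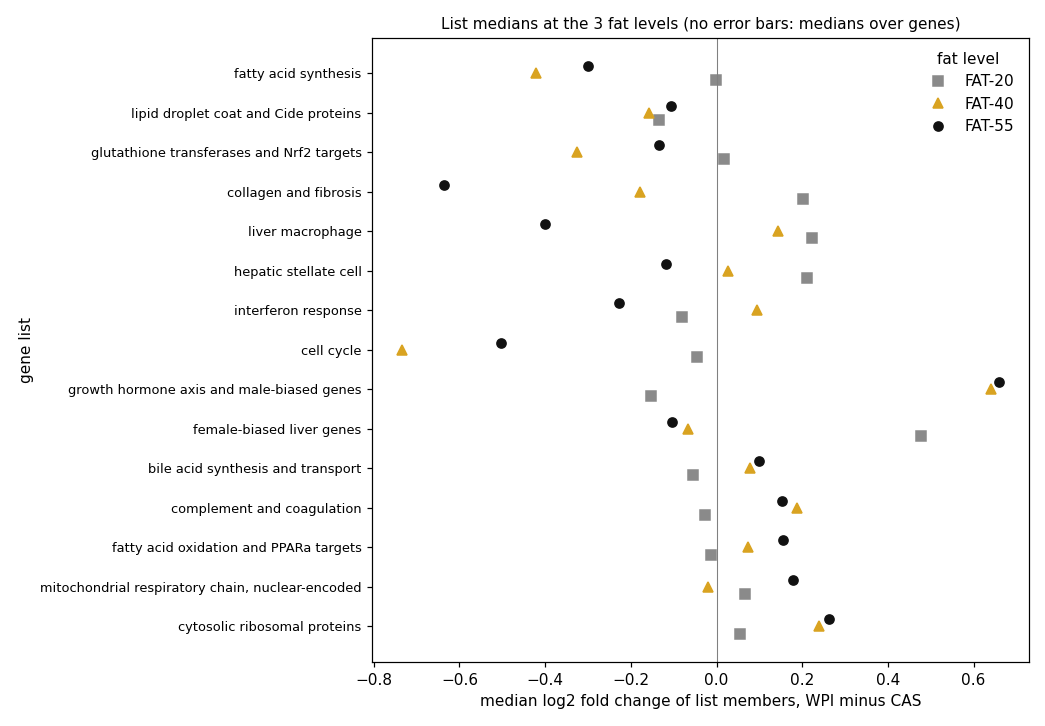
Median log2 fold change of WPI minus CAS over the tested members of 15 gene lists at fat levels 20, 40 and 55; the points are medians over genes and carry no error bars. The male-biased list lies at -0.15, 0.64 and 0.66, and the fibrosis list at 0.20, -0.18 and -0.64.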

How the data were processed

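Total RNA of whole liver was sequenced, and the authors deposited 1 table of raw read counts per gene for the liver libraries. Per the submitters' processing notes, reads were trimmed with cutadapt and Trim Galore 0.61, checked with FastQC and aligned with STAR to GRCm38, and DESeq2 1.24.0 is listed among the tools. Not given in the sources used here are the version of STAR, the gene annotation and whether counting used strand. The 4 summary rows that name no gene were left out of library sizes and tests. Over the 70 liver libraries they held 2.78 to 10.8% of reads as unmapped, 6.93 to 8.74% as mapped to several places, 2.90 to 6.87% as outside features and 4.98 to 5.81% as ambiguous.

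All 70 liver libraries were fitted together in edgeR 4.0.16 (R 4.3.3), with 1 coefficient per diet, TMM scaling and filterByExpr (minimum count 10, minimum total 15). The filter left 15051 of 55536 genes. The quasi-likelihood test was adjusted over those genes by Benjamini-Hochberg, with calls at 0.05. Levels in CPM are the deposited counts after TMM scaling. Gene symbols matched 55450 identifiers. Tested on simulated data, the fit of this contrast recovered 70% of genes changed 1.25-fold and 90% of those changed 2-fold, over 15051 genes. The simulated libraries were drawn independently, without the correlation of 0.16 within a stem. These figures therefore do not describe recovery where mice of a stem resemble each other. Each library carries its own animal identifier. Replicates are numbered in accession order and pair nothing. Correlations used SciPy 1.17.1 with 100000 permutations. Alternatives used DESeq2 1.42.0 and limma 3.58.1, another scaling, no filter, sums or a random effect by identifier stem, quality weights, the FAT-55 libraries alone, and each library or stem left out.

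The comparison, its members and the gene lists were chosen with earlier results of these data known. Genes were named by rule: 4 markers, the 10 called genes with the largest fold in each direction (mean of at least 1 CPM, no predicted models), up to 3 called members of each list with the lowest adjusted p, and cell type markers. Not all of these are printed, and 1 is not reported here. Named outside the rule, after their values were seen, were landmark genes of a pathway (Plin2, Fasn, Srebf1, Fads2, Me1, Cyp7a1, Cyp7b1, Cyp3a11, Ghr, Igf1, Stat5a, Stat5b, Socs2, Acta2, Trem2, Ccl2) and members that make up small counts.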

Additional observations from a re-analysis of the deposited data

Results flagged for a closer look

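The protein effect was compared between fat levels by the difference of the 2 contrasts in edgeR's quasi-likelihood test, adjusted over all 15051 genes. The results below are those where that difference passed among the genes named in the report. Most of these were named for their call at FAT-55. The difference uses the same FAT-55 libraries, so it is no independent support for those calls. It passed for 1027 genes between FAT-55 and FAT-20 and for 49 between FAT-55 and FAT-40. Values are on the log2 scale, as the effect of WPI against CAS at FAT-55 minus that at the lower fat level. A negative value means that the effect at FAT-55 lay further toward lower on WPI.

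Against FAT-20, the droplet and fat synthesis genes Cidec, Plin4, Plin3 and Pgd differed by -1.96, -1.66, -0.52 and -0.52. The matrix and stellate cell genes Col1a1, Col1a2, Col3a1, Loxl2, Pdgfrb and Lrat differed by -1.81, -1.45, -1.33, -1.04, -0.80 and -0.56. Lrat did not pass at FAT-55 alone. The immune genes Cx3cr1, Cd8a, Ccl5, Il1rn and Lcn2 differed by -1.41, -2.16, -1.42, -1.37 and -3.09. The glutathione transferases Gstm3 and Gstm1 differed by -1.92 and -0.54, Ugdh by -0.66, Cyp3a59 by -1.38, Abcc4 by -0.93, Ucp2 by -0.61 and Apoa4 by -1.73. Ephb2, Gprc5b, Ly6d, Kbtbd11 and Slc39a4 differed by -2.83, -2.65, -3.31, -1.76 and -1.48.

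In the other direction, the male-biased genes Hsd3b5, Serpina1e, Mup7, Cyp4a12b, Mup21, Mup3 and Cyp2d9 differed by 4.38, 2.58, 2.23, 2.18, 1.15, 1.01 and 0.75, and Igfals and Igf1 by 0.69 and 0.43. The bile acid genes Slco1a1, Cyp7b1, Slc10a1 and Nr1h4 differed by 2.12, 1.10, 0.63 and 0.39. The P450 enzymes Cyp2c54 and Cyp1a2 differed by 1.72 and 0.65. The secreted proteins C8b, Serpina3k, Apom, F7 and F10 differed by 1.26, 0.98, 0.62, 0.47 and 0.33, and the oxidation gene Creb3l3 by 0.42. Adgrf1 and Susd4 differed by 2.91 and 1.27.

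Against FAT-40, 4 of the genes named in the report passed. Kbtbd11 differed by -1.71 and Slc39a4 by -1.29 (adjusted p = 0.0243 for each), Il1rn by -1.21 and Dmgdh by 0.48 (adjusted p = 0.0467 for each).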

How the results depend on the processing

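Scaling by median of ratios changed none of the 93 calls of named genes. DESeq2 changed 1, library quality weights 4, and the FAT-55 libraries alone 6 of the 90 tested there (Timp1, Cd8a and Gzma were not). With a library left out, genes higher on WPI ran from 787 to 1218 and lower ones from 755 to 1402, and 15 of the 93 genes lost their call at least once. The stems mattered more. With counts summed by stem, genes higher numbered 76 and lower 135, 36.0% of calls being higher against 48.7%. The same counts were 452 and 552 with the stem as a random effect. With a stem left out, the counts were 548 and 569 (without H3E), 503 and 497 (without H7E) and 415 and 556 (without H3F), the higher count reaching 1448 (without H6F), and 29 genes lost their call at least once. Lrat, not called, turned from -0.14 to 0.0072 without H7E and 0.0001 without H3F, with -0.24 as its lowest value (without H3E). The cause was not tested.

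At FAT-20, 77 genes became 158 in DESeq2, 30 without a filter, 0 with sums over stems (1343 at an unadjusted p under 0.05 in edgeR), 7 with the random effect and 515 with quality weights. At FAT-40, 1236 became 64 with sums over stems and 490 with the random effect. The 1027 differences against FAT-20 became 539 without a filter, 2 with sums over stems and 110 with the random effect. The 49 against FAT-40 became 190 in DESeq2, 3 without a filter, 22 with quality weights, 0 with sums over stems (1383 at an unadjusted p under 0.05 in edgeR) and 0 with the random effect (1348 in limma). With no filter, 33569 genes were tested. Of the 12 correlations, none changed its call with a pseudocount of 10. List counts without WPI FAT-55 replicate 2 and by stem were chosen after seeing the data. No paired analysis was possible because the labels give no replicate numbers that groups share. Depth limits Timp1, which had 0 reads in 1 WPI library.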
